A study of Mus musculus with 4 samples.

Results

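Hair and nail keratins and keratin-associated proteins were measured across the cells of regenerating mouse digits by scRNA-Seq. The genes were matched by symbol: every Krt31 to Krt39 and Krt81 to Krt87 entry and every numbered Krtap entry of the gene list, which gave 71 of 33696 genes. They were 8 type I keratins, 6 type II keratins and 57 Krtap genes, of which 15 belong to the high glycine-tyrosine families. In all, 4 libraries were made, each from the severed ends of hindlimb digits of 10 pooled female C57BL/6 mice aged 6 to 8 weeks whose terminal phalanx (P3) had been amputated. The SAR131675 library came from mice fed chow with the VEGFR3 inhibitor at 30 mg/kg, and the control diet library from mice on chow without it. Both are listed with 8 days on their diet. The LNR library came from limbs after lymph node removal, and the sham library from the opposite limbs, which kept their nodes. Digits were taken at 8 days postamputation (DPA), or at 5 DPA for the diet pair in one description. Each condition is thus 1 library of pooled animals with its own batch number in the labels, so no test across samples was possible, no p-value is given, and treatment and batch cannot be told apart.

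Type I and type II keratins pair to form the filaments of epithelial cells. The hair and nail members build the hard cortex, cuticle and nail plate, while Krtap proteins, rich in cysteine or in glycine and tyrosine, fill and cross-link the space between the filaments. In the follicle these genes are switched on in order as cells leave the matrix. Krt35 is known as an early keratin of matrix, precortex and cuticle, Krt32 and Krt82 as cuticle keratins, Krt31, Krt33a, Krt33b, Krt34, Krt81, Krt83 and Krt86 as cortex keratins, and Krt36 and Krt84 as keratins of the nail and tongue.

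Barcodes with 200 to 5500 genes, at most 30000 UMIs and at most 10% mitochondrial UMIs were kept. These numbered 29076 in SAR131675, 24030 in control diet, 19827 in LNR and 20669 in sham, with median depths of 11316, 10712, 5725 and 5851 UMIs. Values below follow that order of libraries unless stated. The members of a pair shared some cell barcodes, 348 in the diet pair and 130 in the LNR pair. Doublet calls took 1.52% to 7.17% of kept barcodes, were not removed, and included 3 of the SAR131675 barcodes rich in hair and nail genes described below and none in the other libraries. Intervals in brackets are exact 95% intervals and cover counting error only.

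Promoters were compared first, since the symbol rule used no sequence. RefSeq promoter entries (GRCm38.p6, 250 bases before to 50 after the start) were matched for 59 of the 71 genes. The letters TATAAA, on either strand, were found in 47 of these 59 (79.7%) and in 13.6% of all 32851 promoters. In 34 genes the letters stood on the gene's own strand and began 25 to 40 bases before the start. The share of all promoters with the letters at that position is not given. This count therefore cannot show whether the position is particular to these genes. CTTTGA, the core letters of sites bound by LEF1, was found on either strand in 20 of 59 (33.9%) and in 16.0% of all promoters. The 80 bases around the start are shown for 6 genes used to describe different kinds of cells below, with TATAAA in capitals where present. All 6 are read 5′ to 3′ from the minus strand.
Krt31, cortex, chr11:100050542-100050621: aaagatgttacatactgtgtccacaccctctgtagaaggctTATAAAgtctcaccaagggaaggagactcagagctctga
Krtap8-1, high glycine-tyrosine, chr16:89487943-89488022: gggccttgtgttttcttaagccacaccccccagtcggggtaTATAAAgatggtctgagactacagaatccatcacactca
Krtap17-1, chr11:99993985-99994064: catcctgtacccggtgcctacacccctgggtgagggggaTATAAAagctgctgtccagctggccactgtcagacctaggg
Krtap3-2, chr11:99556844-99556923: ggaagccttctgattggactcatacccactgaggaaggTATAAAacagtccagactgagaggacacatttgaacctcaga
Krt36, chr11:100105617-100105696: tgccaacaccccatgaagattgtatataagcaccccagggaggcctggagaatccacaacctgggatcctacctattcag
Krt84, chr15:101532811-101532890: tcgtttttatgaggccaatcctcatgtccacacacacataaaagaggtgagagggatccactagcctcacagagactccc

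The TATAAA letters began 29 to 32 bases before the start in the 4 promoters that held them. Krt36, Krt82 and Krt39 held none on either strand of their whole entries, and Krt84 held 1 on the opposite strand, outside the bases shown. Of the 70 genes placed by RefSeq, 31 lay on chromosome 11, 24 on chromosome 16, 6 on chromosome 15, 5 on chromosome 7, 3 on chromosome 10 and 1 on chromosome 1. In all, 7 genes shared 90-base windows of their 3′ ends with other transcripts, so their counts are uncertain. These include Krtap4-13, with 95.8% of its windows shared, and Krt87, with 24.8% shared with Gm49425. Krtap12-1 and Krtap10-10 overlap Tspear on the same strand, Krtap10-10 also Gm2696, and Krtap15 overlaps 4930553J12Rik, so these counts are uncertain too. On the opposite strand, Krt32 overlaps Gm11571, Krtap10-4 overlaps Tspear and Gm2696, Krtap24-1 overlaps Gm49688, and Krtap14 overlaps Krtap15 and 4930553J12Rik.

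A UMI in each of the 4 libraries was found for 51 of 71 genes, all 14 keratins among them. Another 11 genes had UMIs in some libraries and 9 had none in kept barcodes. The 5 Krtap genes without a UMI in any barcode of any library were (Krtap5-1, Krtap5-2, Krtap5-3, Krtap5-5 and Krtap9-5). At least 20 UMIs were counted for 48 genes in SAR131675, 27 in control diet, 30 in LNR and 35 in sham. The summed level of the 71 genes, in UMIs scaled to the same library total (CPM), was 126 (125 to 127) in SAR131675, 109 (108 to 110) in control diet, 164 (162 to 166) in LNR and 110 (109 to 112) in sham. In kept barcodes Krt35 was the most abundant gene, with 35610 UMIs over the 4 libraries, followed by Krt36 with 18875 and Krt84 with 10204. Krt35 made up 50.8% of the summed UMIs in SAR131675 and 31.1% in sham, where it led. Krt36 led in control diet with 26.1% and in LNR with 28.2%.

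Cell classes were formed without the 71 genes and without the pathway genes below, and were named from marker genes. Gm49425, which shares 3′ windows with Krt87, was not left out. In the class called inner follicle and nail, 6 inner root sheath markers summed to 3240, 3083, 2026 and 6337 CPM, against 147, 16.1, 28.1 and 67.2 CPM in non-epithelial cells. The 9 hair shaft and nail plate markers, none of them a hair or nail keratin, summed to 1545, 1084, 1544 and 2644 CPM against 86.6, 71.9, 90.6 and 104. Their median per cell of the class was 48.2 CPM in SAR131675 and 0 in the other libraries. The 6 basal keratinocyte markers summed higher in the class, to 4738, 6643, 4131 and 3793 CPM. Their medians per cell were 1860, 2809, 1424 and 1840 CPM. Marker sets also served to name the clusters, so their levels are a description of the class. Melanocyte markers summed to 41.6 to 486 CPM in it, against 2.06 to 5.40 CPM in non-epithelial cells, and how far pigment cells add to the class was not tested. It made up 5.35% (5.10 to 5.62) of kept barcodes in SAR131675, 2.89% (2.68 to 3.11) in control diet, 2.35% (2.14 to 2.57) in LNR and 2.39% (2.18 to 2.60) in sham. The hair and nail genes reached 1422 CPM there in SAR131675, 924 in control diet, 2640 in LNR and 2112 in sham, and without the 5 top barcodes of the class 1158, 694, 873 and 1015 CPM. In epidermal and outer follicle cells the sum was 32.1, 113, 112 and 44.3 CPM, and 26.7, 45.7, 35.03 and 28.1 CPM without their 5 top barcodes. In non-epithelial cells, which should lack these genes, it was 21.96, 7.49, 17.6 and 25.7 CPM, and 17.3, 5.76, 12.4 and 14.2 CPM without theirs. The non-epithelial class held 11 barcodes rich in these genes in SAR131675 and 4 in sham, and how much of its level came from free RNA was not tested. With every barcode counted, the inner follicle and nail level was 64.7, 123, 150 and 82.3 times the non-epithelial level, and the order of the libraries by the level of that class changes without its top barcodes. At least 1 UMI was seen in 28.2% to 36.4% of inner follicle and nail cells, at median depths of 9265 to 14239 UMIs, and in 2.87% to 6.95% of non-epithelial cells, at median depths of 3419 to 8328.

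**Figure D1:**
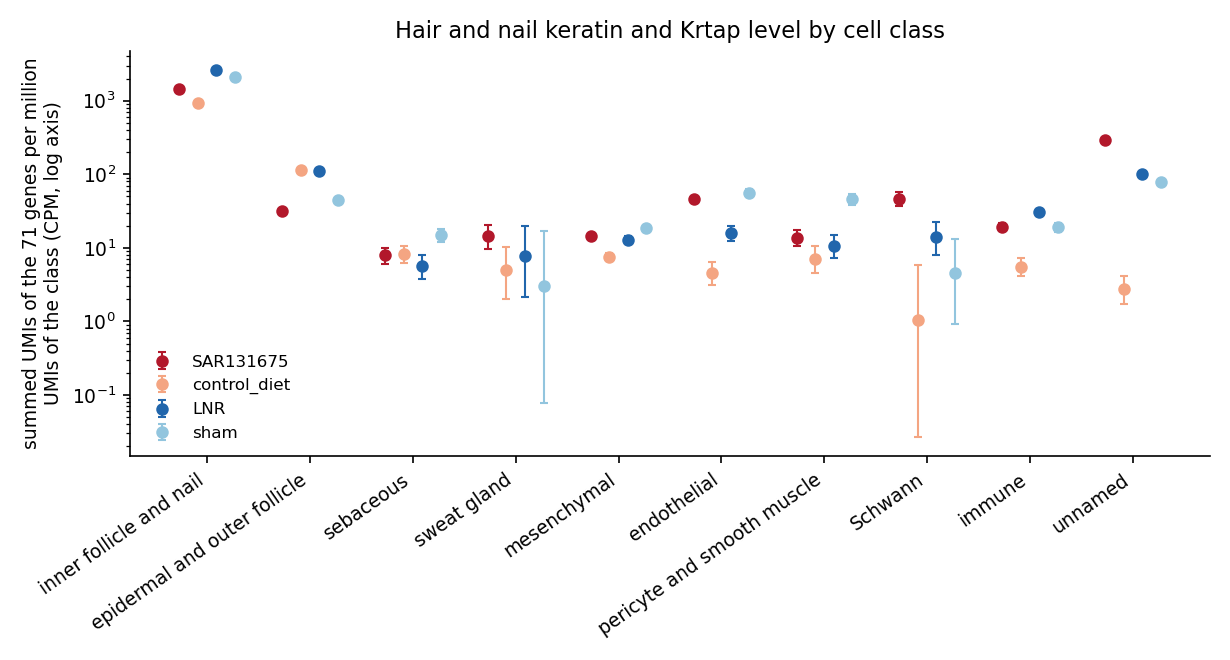
Summed level of the 71 genes (CPM, log axis) in each cell class for the 4 libraries, with points for the level and bars for the exact 95% counting interval. Inner follicle and nail cells sit between 924 and 2640 CPM, and the erythroid class of the diet pair is left out. The unnamed clusters of SAR131675 reach 297 CPM, nearly all of it in 5 barcodes.

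Few barcodes carried the signal. The 5 highest barcodes held 15.0% (14.6 to 15.3) of the summed UMIs in SAR131675, 42.7% (42.2 to 43.3) in control diet, 48.9% (48.3 to 49.6) in LNR and 34.4% (33.7 to 35.1) in sham. As few as 9 barcodes in control diet and 6 in LNR held 50% of the UMIs, against 44 in SAR131675 and 14 in sham. Of the genes with at least 20 UMIs, 33 of 48, 17 of 27, 21 of 30 and 23 of 35 had over 50% of their UMIs in 5 barcodes. The same share over all genes is not given, so these counts cannot show whether the concentration is particular to these genes. Without the 5 highest barcodes the summed level fell to 107, 62.6, 83.8 and 72.4 CPM. Among kept barcodes Krt35 and Krtap17-1 were spread more widely, with 9.89% to 24.9% and 6.40% to 14.8% of their UMIs in their own 5 top barcodes. For Krtap17-1 this did not hold with all barcodes of SAR131675, where 1 barcode set aside for its depth held 2690 and another 1482 of its 7977 UMIs. Krt36 and Krt84 were concentrated, with 67.3% to 74.1% and 64.8% to 84.2%. The plot of cumulative shares shows the SAR131675 curve below the others over the first 100 barcodes.

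**Figure D2:**
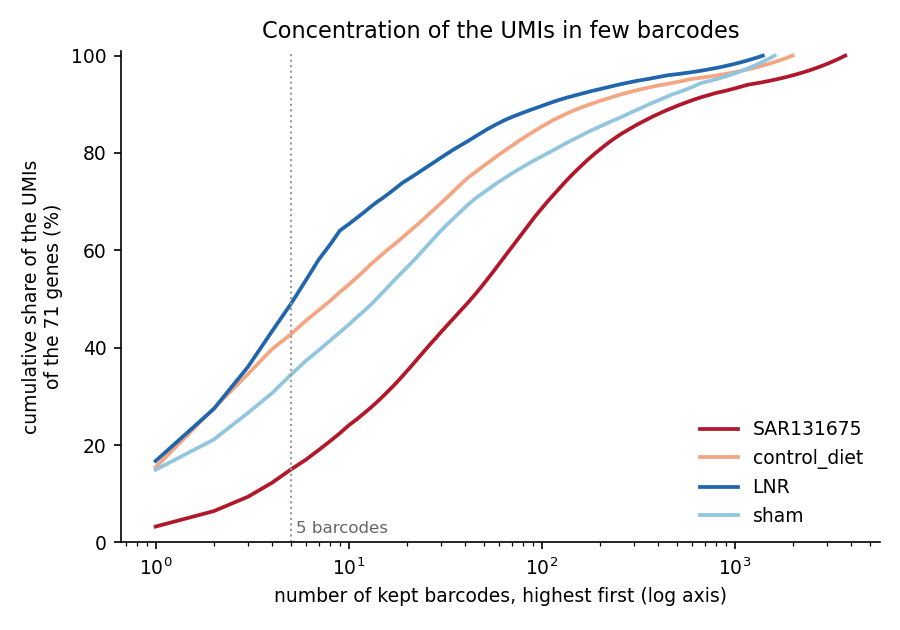
Cumulative share of the UMIs of the 71 genes (%) against the number of kept barcodes, highest first (log axis), 1 line per library. At 5 barcodes (dotted line) the lines stand at 15.0% in SAR131675, 34.4% in sham, 42.7% in control diet and 48.9% in LNR.

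Barcodes in which these genes made up at least 1% of all UMIs, with at least 10 such UMIs, are called rich below. They numbered 76 (0.261% of kept barcodes, 0.206 to 0.327) in SAR131675, 34 (0.141%, 0.0980 to 0.198) in control diet, 21 (0.106%, 0.0656 to 0.162) in LNR and 26 (0.126%, 0.0822 to 0.184) in sham. They held 56.7%, 67.8%, 74.1% and 56.8% of the summed UMIs. Just inside the limit barcodes had 1.00% to 1.09% of their UMIs in these genes and just outside it 0.978% to 0.996%. Both a keratin and a Krtap gene were detected in 55 of 76, 25 of 34, 19 of 21 and 20 of 26 rich barcodes. When every barcode was thinned to 1500 UMIs, leaving out 1252, 1743, 1359 and 1475 shallower ones, 67, 30, 22 and 26 were rich. Rich barcodes are described next by the set of genes that led them, and the bars for the 12 highest barcodes show the sets in each.

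**Figure D3:**
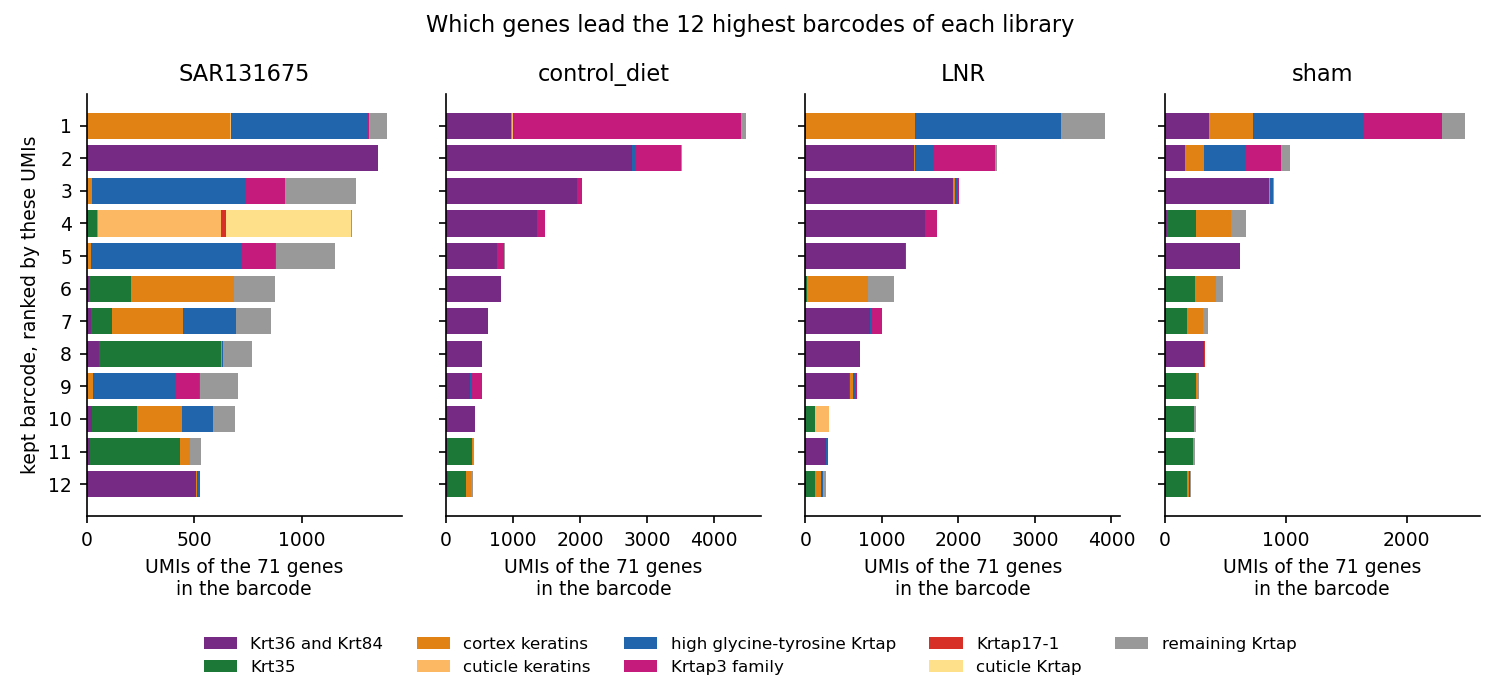
UMIs of the 71 genes in the 12 highest kept barcodes of each library, 1 bar per barcode, split by gene set: Krt36 and Krt84; Krt35; cortex keratins (Krt31, Krt33a, Krt33b, Krt34, Krt81, Krt83, Krt86, Krt87); cuticle keratins (Krt32, Krt39, Krt82); high glycine-tyrosine Krtap; Krtap3 family; Krtap17-1; cuticle Krtap (Krtap10-4, Krtap10-10, Krtap12-1, Krtap24-1, Krtap26-1); and remaining Krtap. Krt36 and Krt84 lead 4 of the 5 highest barcodes in control diet, and the x axes differ between libraries.

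Krt35, the early hair keratin, is taken first, and whether its cells were matrix cells was not tested. It led 41 of 76 rich barcodes in SAR131675, 11 of 34 in control diet, 5 of 21 in LNR and 14 of 26 in sham. The gene had 21699 UMIs (63.9 CPM) in SAR131675, 5468 (20.6) in control diet, 3269 (22.9) in LNR and 5174 (34.4) in sham. At least 10 UMIs were found in 220, 67, 53 and 73 barcodes. In the diet pair 95.2% and 95.8% of Krt35 UMIs fell in the cluster led by Gm49425, Krt73, Krt28 and Lef1, where 36.7% and 30.6% of cells had a UMI against 2.18% and 0.588% of all other cells. In the LNR pair 74.2% and 73.1% fell in the inner follicle and nail cluster. Non-epithelial cells held Krt35 at 0.479 to 4.67 CPM, against 503 to 978 CPM in inner follicle and nail cells.

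Krt36 and Krt84, the nail keratins, were often found in the same barcodes. They led 8 rich barcodes in SAR131675, 17 in control diet, 11 in LNR and 3 in sham. Krt36 had 2606 UMIs (7.67 CPM), 7564 (28.5), 6598 (46.2) and 2107 (14.0), and Krt84 had 1239 (3.65), 4666 (17.6), 3296 (23.1) and 1003 (6.66). Within the pairs, both genes were higher in control diet than in SAR131675 and higher in LNR than in sham. Of barcodes with at least 10 Krt84 UMIs, 10 of 12, 19 of 24, 14 of 16 and 6 of 6 also held Krt36. In the other direction, 11 of 25, 19 of 25, 17 of 20 and 12 of 15 barcodes with at least 10 Krt36 UMIs held Krt84. The pair was not apart from Krt35, since Krt36 was found in 30.5%, 34.3%, 35.8% and 37.0% of barcodes with at least 10 Krt35 UMIs, against 0.609%, 0.945%, 0.681% and 0.706% of all kept barcodes. Both genes reached 10 UMIs in 17, 6, 6 and 3 barcodes. Krt84 was found in 8.64%, 20.9%, 13.2% and 12.3% of barcodes with at least 10 Krt35 UMIs, against 0.746%, 1.02%, 0.494% and 0.518% of all kept barcodes. Inner follicle and nail cells, a nearer reference, held Krt36 in 5.14% (SAR131675), 5.76% (control diet) and 6.02% (LNR) of cells. They held Krt84 in 2.25%, 4.32% and 3.87%. The second highest SAR131675 barcode held 1017 Krt36 and 339 Krt84 UMIs and no other hair or nail gene among its 4975 detected genes.

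The clusters that held most Krt36 and Krt84 UMIs are given with their barcodes, since few barcodes set these shares. In control diet 68.1% of Krt36 and 71.05% of Krt84 UMIs fell in a granular cluster of the epidermal class led by Lce1a1, Lce1m, Lor and Hrnr, genes of the cornified envelope. In SAR131675 56.8% and 59.3% fell in the nail cluster led by Spink12, Krt42, Krt16 and Krt6b, where 1 barcode held 1017 of the 1481 Krt36 UMIs. The pigment gene Dct was also among the leading genes of that cluster. Relative to the highest cluster of the pair, its melanocyte markers averaged 1 and its nail and companion markers 0.805. Of the 25 SAR131675 barcodes with at least 10 Krt36 UMIs, only 6 lay in that cluster and 17 in the cluster led by Gm49425, Krt73, Krt28 and Lef1. In LNR Krt36 UMIs were split between the inner follicle and nail cluster (61.9%) and a granular cluster (35.5%), and in sham 80.4% were in the inner follicle and nail cluster. The control diet granular cluster held 951 cells, but only 7 of them had at least 10 Krt36 UMIs, so its level is that of few cells.

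Cortex keratins were rarer than Krt35 and Krt36 in kept barcodes. Krt31 had 961, 183, 926 and 646 UMIs there and reached 10 UMIs in 10, 6, 7 and 7 barcodes. Krt33a reached 10 UMIs in 5, 4, 3 and 1 barcodes, and Krt31 was present in every one of them. With all barcodes the order changed in SAR131675, where Krt33a had 7685 and Krt31 6782 UMIs against 6386 of Krt36, and 93.3% and 85.8% of the UMIs of both cortex genes lay outside the limits. In control diet 91.3% of Krt33a and 94.3% of Krt31 UMIs did. Krt31 barcodes also carried Krt36 in 10 of 10, 5 of 6, 7 of 7 and 7 of 7 cases and Krt35 in 9 of 10, 3 of 6, 6 of 7 and 5 of 7. The highest kept LNR barcode, with 3921 summed UMIs, combined 357 Krt31, 352 Krt33a and 278 Krt83 UMIs with 1432 Krtap8-1 UMIs, and held no Krt35. Another kept LNR barcode held 65 Krt83 UMIs. The most Krt83 UMIs in a kept barcode of the other libraries were 34, 14 and 16, and no kept barcode of any library passed 5 Krt86 UMIs. Of all Krt86 UMIs 92.5%, 95.2%, 14.7% and 70.5% lay outside the limits. In the diet pair Krt83 was seen in 4.36% and 4.27% of cells of the outer follicle cluster led by Defb6, Cst6 and Krt79, against 0.501% and 0.294% of other cells.

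Cuticle keratins went together. Krt32 reached 10 UMIs in 7, 3, 1 and 6 barcodes, and its type II partner Krt82 was present in 6, 3, 1 and 6 of these, while Krt35 was present in all of them. The fourth highest SAR131675 barcode showed a full cuticle set of 386 Krt32, 179 Krt82, 494 Krtap26-1 and 78 Krtap24-1 UMIs. Krt32 was also detected at low level in outer follicle cells. In the cluster led by Lgr5, Lhx2 and Shisa2, genes of the lower outer root sheath and bulge, 5.61% and 4.81% of diet pair cells had a Krt32 UMI, while 0.233% and 0.160% of non-epithelial cells did. Krt39 had 33, 30, 3 and 5 UMIs.

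Krtap17-1 in kept barcodes was found mostly in outer follicle cells. It reached 10 UMIs in 71, 27, 21 and 21 barcodes, and a Krt35 UMI was found in 1, 0, 0 and 0 of them, against 3.47%, 1.09%, 1.07% and 1.40% of all kept barcodes, so few were to be found at that share. The Lgr5, Lhx2 and Shisa2 cluster held 84.04%, 88.0%, 73.3% and 76.3% of its kept UMIs. Between 12.5% and 14.7% of the cells of that cluster had a Krtap17-1 UMI, against 0.257% to 0.664% of other cells. The most in a kept barcode was 36, 47, 20 and 17 UMIs. Its level was 7.08, 4.47, 6.93 and 6.75 CPM over all kept barcodes and 13.6, 7.16, 6.58 and 6.51 CPM with all barcodes. Of its UMIs 69.8% in SAR131675 and 62.9% in control diet lay outside the limits. There it was found with cuticle genes: 2690 UMIs stood beside 2213 Krtap12-1 and 2162 Krtap26-1 UMIs in 1 SAR131675 barcode, 1482 beside 1067 Krtap26-1 and 400 Krt32 UMIs in another, and 877 beside 1330 Krt32 and 1038 Krt82 UMIs in 1 control diet barcode.

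Krtap3-2 was found mostly in granular cells. It reached 10 UMIs in 28, 44, 3 and 2 barcodes, and 82.0%, 97.5%, 66.7% and 62.0% of its kept UMIs lay in granular clusters, while 61.8%, 44.4%, 33.6% and 33.7% of all its UMIs lay outside the limits. Of those barcodes 24, 33, 2 and 2 held neither Krt36 nor Krt84, yet Krt84 was more frequent in them than over all kept barcodes in the diet pair, at 14.3% and 20.5% against 0.746% and 1.02%. Krt36 was found in 3.57% and 15.9% of them, against 0.609% and 0.945%. Krtap3-1 and Krtap3-3 lay elsewhere in some libraries. The unnamed cluster led by Gpc5 and Rspo3 held 62.3% and 41.0% of their UMIs in SAR131675, a granular cluster 97.3% and 95.4% in control diet and 80.9% and 87.0% in LNR, and the inner follicle and nail cluster 75.7% and 81.7% in sham. Both were found beside Krt36 and Krt84 in high barcodes of 3 libraries. In the highest control diet barcode 1815 Krtap3-1, 1044 Krtap3-3 and 531 Krtap3-2 UMIs stood beside 657 Krt36 and 320 Krt84 UMIs, and in the second highest LNR barcode 467 Krtap3-1 and 295 Krtap3-3 UMIs stood beside 804 Krt36 and 622 Krt84 UMIs. The highest sham barcode held 345 Krtap3-1, 308 Krtap3-3 and 217 Krt84 UMIs.

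High glycine-tyrosine Krtap genes led 15, 1, 3 and 8 rich barcodes. Krtap8-1 had 1311, 248, 1644 and 662 UMIs, and the 10, 2, 5 and 6 barcodes with at least 10 of them held Krtap7-1 in 9, 2, 5 and 6 cases. Of the SAR131675 barcodes led by these genes 11 lay in clusters that were not keratinocyte-like, and their total depth was low, from 1181 to 6795 UMIs. These 11 carried 4017 UMIs of 13 to 35 hair and nail genes each. Sham had 4 such barcodes. Rich barcodes outside keratinocyte-like clusters, whatever led them, numbered 16 in SAR131675, of which 10 lay in endothelial clusters, 1 in an immune cluster and 5 in an unnamed cluster led by Gpc5 and Rspo3. Whether these barcodes were intact cells was not tested.

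The genes detected beside each set were compared next. Rich barcodes and the sets that led them were chosen by hair and nail genes alone. The keratinocyte-like cells were not chosen apart from the genes compared. Some of these, such as S100a3, Dsg4, Krt25, Krt71 and Tchh, were also markers that named the cell classes. That naming set the comparison cells here and limited the barcodes led by Krt35 or by Krt36 and Krt84 below. Ratios of marker genes are therefore a description. Hair and nail transcription factors, of which HOXC13 activates hair keratin genes and LEF1 carries Wnt signals in the matrix, included 6 of 12 genes (Hoxc13, Lef1, Msx2, Foxn1, Dlx3 and Ovol1) that were higher in rich barcodes than in keratinocyte-like cells that were not rich, by a log2 ratio of at least 1 in all 4 libraries. Among all 5398 genes tested 275 (5.09%) met that limit. All rich barcodes entered, including the 16, 1, 2 and 6 outside keratinocyte-like clusters. Keratinocyte-like cells were mostly epidermal and outer follicle, 17276 of 18832 in SAR131675 and 14838 of 15532 in control diet. Inner follicle and nail cells that were not rich were not compared apart, so these ratios do not set rich barcodes against their nearest cells. In SAR131675 rich barcodes held 1409 of 16734 Lef1 and 1338 of 21749 Hoxc13 UMIs. Of the 12 transcription factors Gata3 and Foxq1 were lower in rich barcodes in all 4 libraries, with intervals below 0. So were Krt17 of the companion layer and Krt25, Krt71 and Tchh of the inner root sheath. The limit was met by 8 of 11 partners of the hair and nail cortex, such as the calcium-binding protein S100a3 and the desmosomal cadherin Dsg4, while the citrullinating enzyme gene Padi3 rested on 35, 5, 2 and 6 UMIs. It was also met by 3 of 6 companion layer and nail bed keratins (Krt6a, Krt6b and Krt16), of which Krt6b was found in only 6.58%, 2.94%, 9.52% and 7.69% of rich barcodes, and by 0 of 8 inner root sheath genes, of which Krt25 and Krt71 stood at 0 to 3.13 CPM in rich barcodes and 22.9 to 150 CPM in the keratinocyte-like cells that were not rich.

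Keratinocyte-like barcodes led by Krt35 (41, 11, 5 and 12) and those led by Krt36 and Krt84 (8, 17, 11 and 3) differed in other genes. In Krt35-led barcodes Lef1 stood at 1798, 1700, 312 and 352 CPM, and in the Krt36 and Krt84-led barcodes at 0, 0, 4.86 and 0 CPM. Selenbp1, a selenium-binding protein, was at 2627 to 7599 CPM in the former and 0 to 308 in the latter, and Msx2 at 153 to 335 against 0 to 12.8. Krt16, a keratin of nail bed and wounded epidermis, went the other way, with 0 to 115 CPM in the Krt35-led and 2509 to 10240 CPM in the Krt36 and Krt84-led barcodes. Krt6a stood at 0 to 16.4 against 2248 to 9965 CPM. These levels came from part of the Krt36 and Krt84-led barcodes, since Krt16 was found in 5 of 8, 3 of 17, 4 of 11 and 2 of 3 of them and Krt6a in 4, 4, 4 and 2. Hoxc13 was present in both, at 691 to 1506 and 304 to 668 CPM. Prr9, a proline-rich protein of hair and nail, was at 0 to 6.64 CPM in the Krt35-led barcodes and at 64.2, 2957, 2674 and 1115 CPM in those led by Krt36 and Krt84, of which 2, 7, 9 and 3 held it.

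Barcodes with at least 10 Krtap17-1 UMIs held the basal keratin Krt5 at 3344 to 4752 CPM, Krt17 at 3405 to 8942, Lhx2 at 336 to 465 and the vitamin D receptor gene Vdr at 161 to 416 CPM, while Lef1 stayed at 16.6 to 46.0. Barcodes with at least 10 Krtap3-2 UMIs and no Krt36 or Krt84 held Lor at 74796 to 88044 CPM and Flg, the filaggrin gene, at 10936 to 35220, with Hoxc13 at 0 to 9.25. These barcodes numbered 2 in LNR and 2 in sham, so only the diet pair values rest on more. The heat map shows the same blocks in each library.

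**Figure D4:**
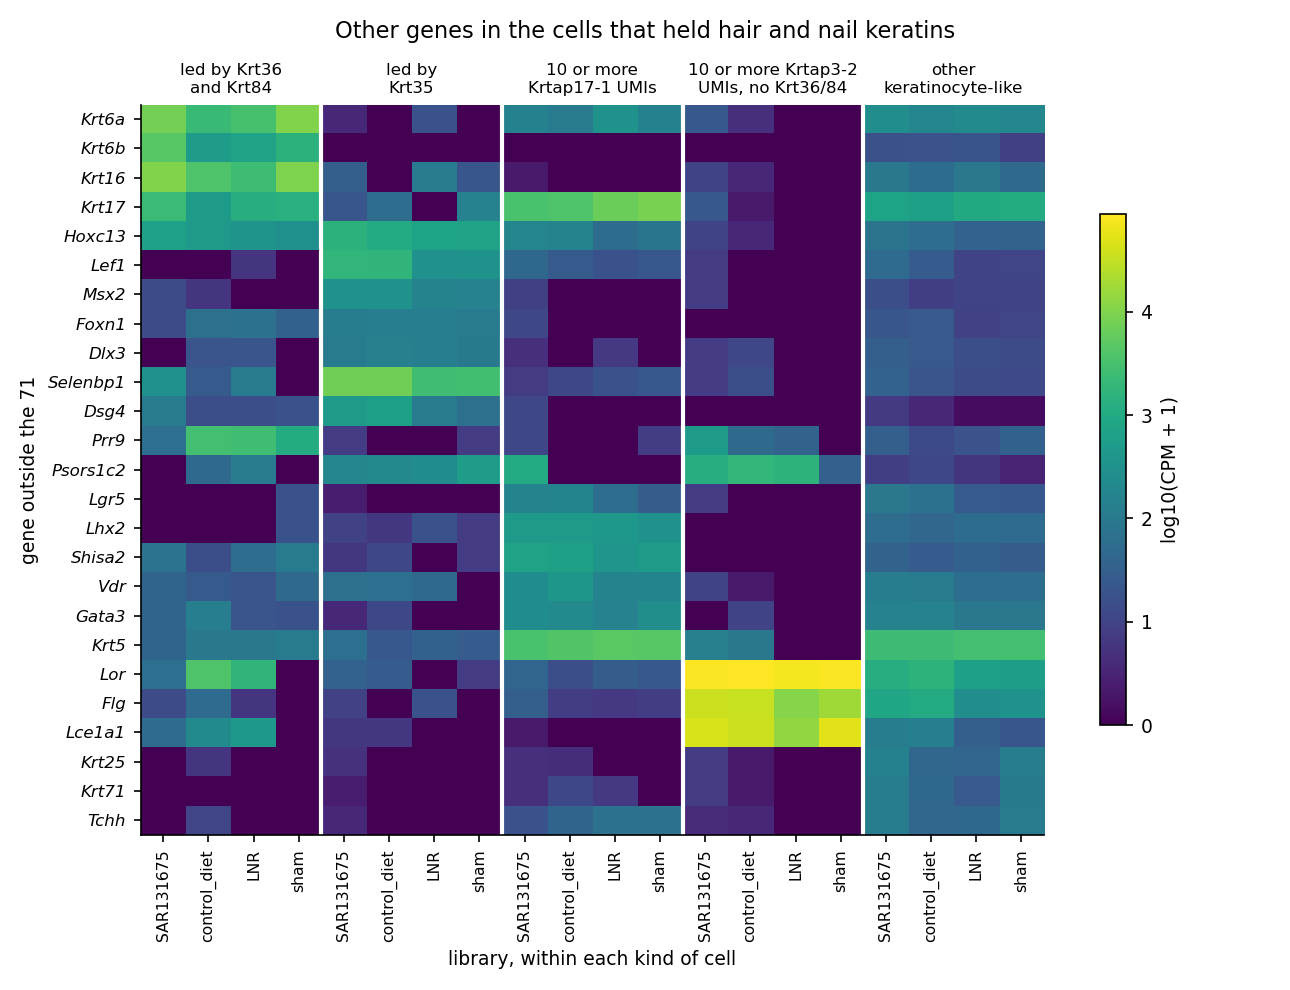
Level of 25 genes outside the 71, as log10(CPM + 1), in barcodes led by Krt36 and Krt84, in those led by Krt35, in barcodes with at least 10 Krtap17-1 UMIs, in those with at least 10 Krtap3-2 UMIs and no Krt36 or Krt84, and in other keratinocyte-like cells, with 1 column per library. Krt6a, Krt6b and Krt16 are bright in the Krt36 and Krt84 block, from few barcodes (in control diet 4, 1 and 3 of 17), Lef1 and Selenbp1 in the Krt35 block, Krt17, Lhx2 and Shisa2 in the Krtap17-1 block, and Lor, Flg and Lce1a1 in the Krtap3-2 block.

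Outside these lists, the 10 genes highest in rich barcodes relative to keratinocyte-like cells that were not rich were 2310079G19Rik, 2310034C09Rik, Calhm4, Tagln3, Gprc5d, Gm56594, Actbl2, 2310057N15Rik, Ly6g6d and Gm49425. The lowest log2 ratio among the 4 libraries was 10.66 for 2310079G19Rik and 7.31 for Gm49425. 2310079G19Rik stood at 313, 3136, 2008 and 2795 CPM in rich barcodes. It was found in 25 of 76, 16 of 34, 14 of 21 and 10 of 26 of them. Actbl2 rested on 3, 1, 1 and 1 barcodes.

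SAR131675 was compared with control diet to ask whether VEGFR3 inhibition moved with hair and nail genes. Krt35 was higher in SAR131675 and Krt36 and Krt84 were lower. Among the 48 hair and nail genes with at least 20 UMIs in the pair, 37 were higher by a log2 ratio of at least 1 and 5 were lower, against 1.55% higher and 1.32% lower of all 22625 genes tested. The median log2 ratio of the 48 was 2.29 and that of all genes -0.02. Many of these genes lay in the same few barcodes, so they do not count separately, here or in the LNR pair. For example, 11 SAR131675 barcodes outside keratinocyte-like clusters carried 4017 UMIs of 13 to 35 hair and nail genes each. The summed level differed by a log2 ratio of 0.20 (0.18 to 0.23), and by 0.77 (0.75 to 0.80) without the 5 top barcodes and 0.71 after thinning to 1500 UMIs. With all barcodes 17 of 58 genes were higher (1.68% of all genes) and 21 lower (1.24%), and without the 5 top barcodes of each library 35 of 48 were higher (1.52%) and 2 lower (1.3%). In keratinocyte-like cells alone 22 of 38 were higher (2.12% of all genes) and 6 lower (1.45%), and in inner follicle and nail cells 11 of 23 were higher (1.42%) and 0 lower (3.82%). With at least 10 UMIs required in the pair 39 of 51 were higher (2.24%) and 5 lower (2.09%), and with at least 100 UMIs 22 of 32 were higher (0.702%) and 5 lower (0.375%). With at least 500 genes and at most 5% mitochondrial UMIs per barcode 40 of 48 were higher (1.57%) and 5 lower (1.29%), and after thinning 24 of 36 were higher (1.15%) and 2 lower (0.983%).

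Krt35 differed by a log2 ratio of 1.63 (1.59 to 1.68), and by 1.57 with all barcodes and 1.63 without the 5 top barcodes. Within inner follicle and nail cells the log2 ratio was 0.63 (0.59 to 0.68), from 978 against 631 CPM, while the share of such cells differed by 0.89 (0.76 to 1.02). Barcodes with at least 10 Krt35 UMIs made up 0.757% of SAR131675 and 0.279% of control diet barcodes, a log2 ratio of 1.44 (1.04 to 1.86). The inner root sheath list moved the same way, with 7 of 8 genes higher by at least 1 and a median log2 ratio of 1.54. Tchh, trichohyalin of the inner root sheath, stood at 99.9 and 32.1 CPM.

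Krt36 had a log2 ratio of -1.89 (-1.96 to -1.83) and Krt84 of -2.27 (-2.36 to -2.18). Without the 5 top barcodes they were -0.996 and -1.46, and within inner follicle and nail cells -0.05 (-0.17 to 0.08) and -0.27 (-0.44 to -0.09). The number of barcodes with at least 10 Krt36 UMIs was 25 in each library. Krtap3-1, Krtap3-3 and Krtap3-2 were the other 3 lower genes, at -2.95, -2.63 and -1.32. Without the 5 top barcodes Krtap3-1 stood at -0.21 (-0.48 to 0.05), Krtap3-3 at -0.56 and Krtap3-2 at -1.13. High glycine-tyrosine Krtap genes summed to 4103 and 628 UMIs in kept barcodes, a log2 ratio of 2.35 (2.23 to 2.48). The unnamed clusters of SAR131675 held 3814 hair and nail UMIs, of which 56.9% came from these genes and 97.9% lay in 5 barcodes. In keratinocyte-like cells alone these genes stood at 6.36 and 2.83 CPM. With all barcodes the high glycine-tyrosine genes summed to 9473 and 13415 UMIs, and the log2 ratio was -0.89 (-0.92 to -0.85). Of those 13415 UMIs 8696 lay in 1 control diet barcode outside the limits, so this change of sign leans on 1 barcode. Krtap17-1 differed by 0.66 (0.56 to 0.76). None of the 12 transcription factors passed a log2 ratio of 1, and Lef1 was at 0.95 and Msx2 at 0.95. Of the companion layer and nail bed keratins 2 of 6 were higher and of the cortex partners 2 of 11, and none of either list was lower.

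LNR was compared with sham to ask the same of lymph node removal. Here Krt36 and Krt84 were higher and Krt35 slightly lower. Of 40 hair and nail genes with at least 20 UMIs 6 were higher and 9 lower, against 0.969% higher and 0.823% lower of 19200 genes. The 6 were Krt33a, Krt83, Krt84, Krt36, Krtap8-1 and Krtap11-1. The median log2 ratio of the 40 was -0.35 and that of all genes 0.02, while the summed level differed by 0.57 (0.54 to 0.60), and by 0.21 (0.17 to 0.25) without the 5 top barcodes and 0.18 after thinning. With all barcodes 3 of 47 were higher (0.931% of all genes) and 17 lower (0.715%), and without the 5 top barcodes 5 of 40 were higher (0.974%) and 7 lower (0.786%). In keratinocyte-like cells 6 of 35 were higher (0.825%) and 8 lower (1.01%), and in inner follicle and nail cells 7 of 26 were higher (1.13%) and 11 lower (1.64%). With at least 10 UMIs in the pair 6 of 45 were higher (1.79%) and 11 lower (1.57%), and with at least 100 UMIs 6 of 26 were higher (0.255%) and 3 lower (0.255%). With the stricter limits on genes and mitochondrial UMIs 10 of 38 were higher (1.1%) and 7 lower (0.796%), and after thinning 4 of 26 were higher (0.931%) and 2 lower (0.625%).

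Krt36 had a log2 ratio of 1.72 (1.65 to 1.79) and Krt84 of 1.79 (1.69 to 1.90). Both held without the 5 top barcodes, at 1.73 and 2.16, with all barcodes, at 2.06 and 2.29, and in keratinocyte-like cells, at 1.95 and 1.95. Within inner follicle and nail cells the values were 1.28 and 0.72. Barcodes with at least 10 Krt36 UMIs nevertheless numbered 20 and 15, and their share differed by a log2 ratio of 0.48 (-0.56 to 1.54). Krt33a differed by 4.25 (3.76 to 4.79), from 633 UMIs in 16 LNR barcodes and 35 UMIs in 14 sham barcodes, with 98.3% of the LNR UMIs in 5 barcodes. With all barcodes it differed by 1.60 (1.38 to 1.83), since 84.4% of sham Krt33a UMIs lay outside the limits. Krt83 and Krtap11-1, both above 1 in kept barcodes, stood at 0.95 and 0.92 without the 5 top barcodes and at 0.30 and 0.14 with all barcodes. Krtap8-1 was at 1.39 (1.26 to 1.52), yet 1432 of its 1644 LNR UMIs came from 1 barcode, and without the 5 top barcodes it was at -0.28 (-0.55 to -0.02). Krt35 was at -0.59 (-0.65 to -0.52) and Krtap17-1 at 0.04 (-0.09 to 0.17). Among the 9 lower genes, Krtap13 stood at -1.80, Krtap22-2 at -1.77, Krt82 at -1.28 and Krt34 at -1.27. Without the 5 top barcodes Krtap13 and Krt34 were each at 0.25, with intervals that held 0, and Krtap22-2 was at -0.63 (-0.92 to -0.33), while Krt82 was still at -1.28.

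The inner root sheath genes were lower in LNR than in sham, with 6 of 8 below a log2 ratio of -1 and a median of -1.57. A cluster of 4 LNR and 393 sham cells, led by Krt71, S100a3 and Krt25, stood almost wholly in sham. Without it 6 of 8 were still below -1 and the median was -1.43. The share of inner follicle and nail cells differed by -0.02 (-0.21 to 0.16), with that cluster left out of the class because it was unnamed. No transcription factor of the list passed a log2 ratio of 1 in either direction. Of the companion layer and nail bed keratins 1 of 6 was higher, and of the cortex partners 1 of 11 was higher and 1 lower. The plot of log2 ratios sets the kept barcodes beside the other 2 ways of counting for each named gene.

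**Figure D5:**
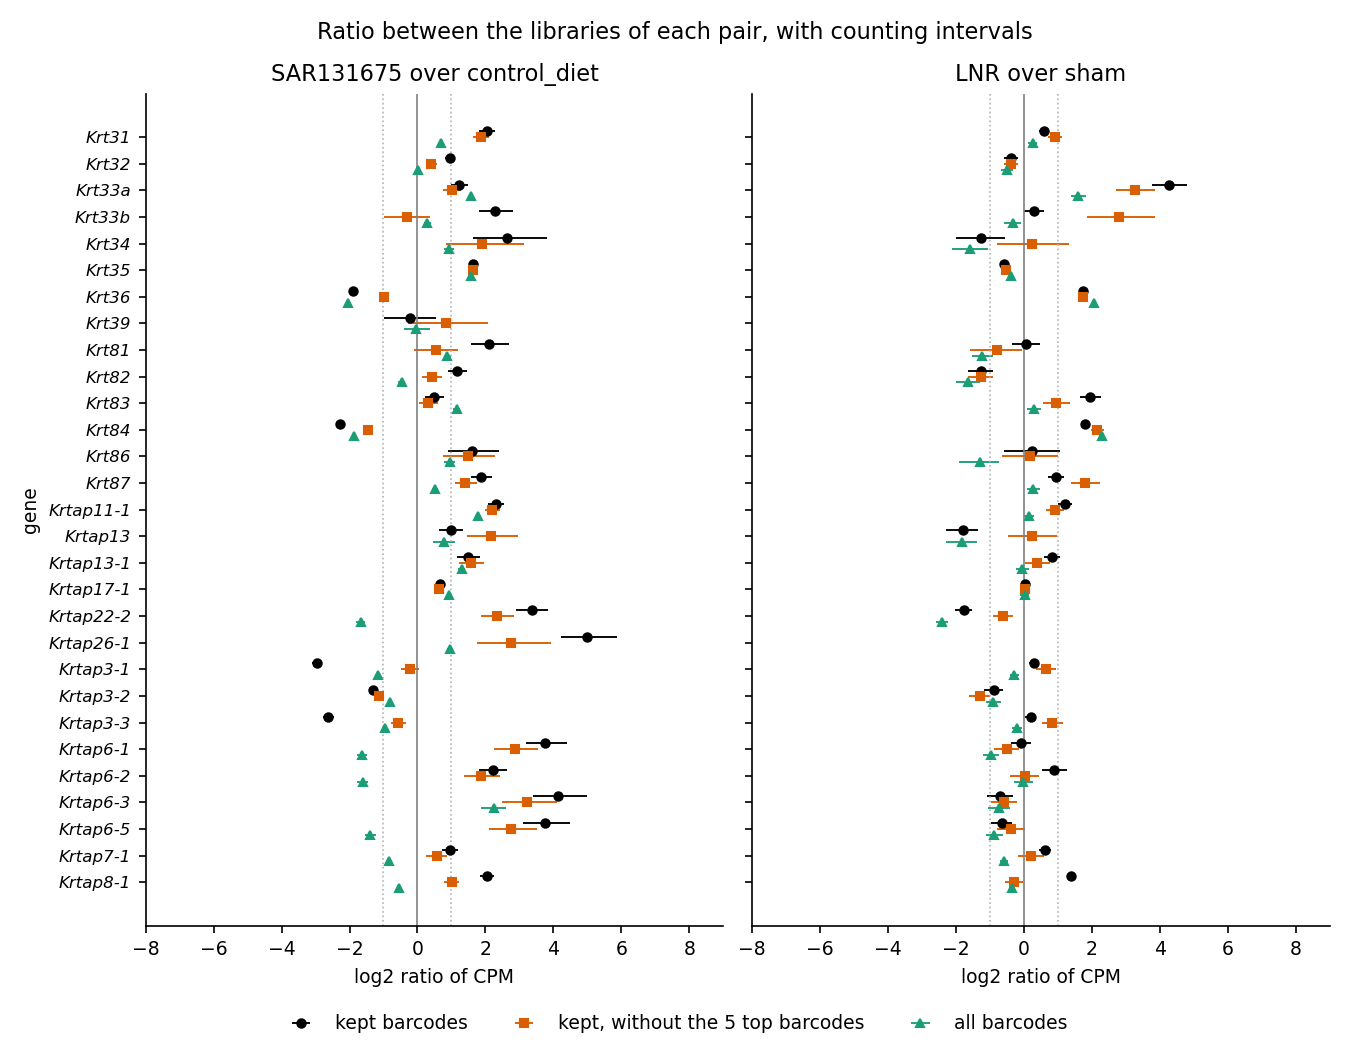
Log2 ratio of CPM for the 14 keratins and the 15 Krtap genes with most UMIs, SAR131675 over control diet on the left and LNR over sham on the right, with exact 95% counting intervals. Black circles are kept barcodes, orange squares leave out the 5 top barcodes of each library, green triangles use all barcodes, and genes under 20 UMIs in a pair are not drawn. Krt35, Krt36 and Krt84 keep their side of 0 in all 3 ways, while Krtap8-1 and Krtap6-1, among others, change side in the diet pair.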

How the data were processed

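Digits of mice in 4 groups, 1 library each, were profiled with the 10x 3′ v3 kit. The deposited matrices hold unnormalized UMI counts, which the authors produced with Cell Ranger and GRCm39 per the submitters' processing notes, which name version 6.1.2. The headers of the diet pair name 8.0.1, so the pairs were normalized and compared apart. From these counts, barcodes outside the limits given in the report were set aside, and UMIs were summed per library and class and scaled to CPM. Each pair was clustered in scanpy 1.11.5 (2000 variable genes, 30 components, 20 neighbours, Leiden resolution 0.7) without the 71 genes and the pathway genes, and clusters were named from marker lists. Doublets were called with Scrublet. Intervals were exact Poisson for CPM, Clopper-Pearson for shares and exact conditional for ratios. A PCR-corrected UMI count still comes from pooled animals of 1 library, so intervals omit animal and batch variation. Called genes had a log2 ratio of at least 1 and at least 20 UMIs in the pair. Scripts were tested on simulated data. Named genes were all keratins, the 15 Krtap genes with most UMIs, the pathway lists, and the 10 outside genes highest in rich barcodes. Members and lists were chosen with earlier results of these data known. Krt74 was not analysed here.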

Additional observations from a re-analysis of the deposited data

How the results depend on the processing

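No paired analysis was possible because each condition was 1 library, and leaving out a replicate was not possible for the same reason. Libraries are in the order SAR131675, control diet, LNR and sham, and causes of the changes below were not tested. Summed CPM was 230, 215, 175 and 149 with all barcodes and 107, 62.6, 83.8 and 72.4 without the 5 top barcodes. It was 177 in LNR and 107 in sham with at least 500 genes and at most 5% mitochondrial UMIs, and 127 in SAR131675, 180 in LNR and 119 in sham without called doublets. The diet log2 ratio of the sum was 0.10 with all barcodes, 0.77 without the 5 top barcodes, 0.040 in keratinocyte-like cells, 0.71 after thinning to 1500 UMIs and 0.62 in inner follicle and nail cells, the last chosen after seeing the data. The LNR log2 ratio was 0.24, 0.21, 0.73, 0.18 and 0.32 in the same order, and 0.72 with the stricter limits. Genes higher in SAR131675 numbered 22 of 32 at 100 UMIs or more (0.702% of all genes), 17 of 58 with all barcodes (1.68%), 22 of 38 in keratinocyte-like cells (2.12%) and 24 of 36 after thinning (1.15%). Those lower numbered 21 of 58 with all barcodes (1.24%), 2 of 48 without the 5 top barcodes (1.3%) and 2 of 36 after thinning (0.983%). Genes higher in LNR numbered 3 of 47 with all barcodes (0.931%) and 10 of 38 with the stricter limits (1.1%), and those lower 3 of 26 at 100 UMIs or more (0.255%), 17 of 47 with all barcodes (0.715%) and 2 of 26 after thinning (0.625%). At resolution 1.5 inner follicle and nail cells stood at 1462, 982, 2386 and 1979 CPM and keratinocyte-like cells at 175, 176, 278 and 165 CPM. Keratinocyte-like cells taken from marker UMIs stood at 107, 132, 244 and 126 CPM, and without doublets those of sham at 165 CPM. The share of UMIs was 3.26%, 15.4%, 16.7% and 14.9% in 1 barcode, 35.2%, 63.4%, 74.4% and 56.5% in 20, and 39.5%, 46.2%, 40.1% and 50.002% in 5 of all barcodes. Rich barcodes made up 0.843%, 0.466%, 0.474% and 0.464% at a limit of 0.2% and 0.0378%, 0.0250%, 0.0303% and 0.0145% at 5%. Changes of sign are listed only for named genes with a log2 ratio of at least 1 in either direction in kept barcodes. In the diet pair the log2 ratio changed sign without the 5 top barcodes for Krt33b (-0.32), in keratinocyte-like cells for Krtap6-2 (-0.50), and with all barcodes for Krt82 (-0.47), Krtap8-1 (-0.53), Krtap22-2 (-1.67), Krtap6-1 (-1.63), Krtap6-5 (-1.40) and Krtap6-2 (-1.61). In control diet 1 barcode outside the limits held 1646 of 1804 Krtap22-2 and 1218 of 1323 Krtap6-1 UMIs. In the LNR pair the log2 ratio changed sign without the 5 top barcodes for Krt34 (0.25), Krtap13 (0.25) and Krtap8-1 (-0.28), and with all barcodes for Krtap8-1 (-0.37). Named genes with smaller ratios changed sign too and are not listed, such as Krtap7-1 with all barcodes in both pairs. Genes under 20 UMIs in a library were too thinly counted to place in a class.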

Other observations

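Barcodes outside the limits held much of the signal: 68.2% of all hair and nail UMIs in SAR131675, 69.9% in control diet, 20.5% in LNR and 36.4% in sham. Rich barcodes there numbered 27, 21, 11 and 11. The highest SAR131675 barcode outside the limits held 24159 such UMIs among 48710, led by 2866 Krt33a, 2378 Krtap11-1, 2108 Krtap3-1 and 1737 Krtap15 UMIs. The second held 9908 of 37852, led by 2690 Krtap17-1, 2213 Krtap12-1, 2162 Krtap26-1 and 880 Krtap10-4 UMIs, while no kept barcode of that library passed 36 Krtap17-1 UMIs. In control diet 1 barcode held 23051 of 49484 UMIs from 55 of the 71 genes, led by Krtap8-1 with 2489. Another, with 98986 UMIs, held a cuticle set of 1386 Krtap26-1, 1330 Krt32, 1038 Krt82 and 877 Krtap17-1 UMIs. The highest in sham held 7981 of 36699 UMIs from 46 genes, again led by Krtap8-1, and the highest in LNR held 1662 UMIs, 1200 of them Krt36. Krtap15, Krtap12-1 and Krtap10-4 were named after their values were seen. Whether such barcodes held 1 cell or several was not tested.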
